A study of Mus musculus with 9 samples.

Results

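Integrins are the transmembrane receptors with which cells hold their extracellular matrix, and laminins are among the main matrix proteins they hold. The integrin and laminin chains were taken here as the rows of the gene table whose symbol is Itga followed by digits or letters, Itgb1 to Itgb8, or Lama, Lamb or Lamc followed by a digit from 1 to 5. The rule found 37 of 31232 genes: 18 integrin alpha chains, 8 integrin beta chains and 11 laminin chains. It uses symbols only and no measured value. The members were followed in bEnd.3, an established line of mouse brain endothelium that was immortalised with polyoma middle T antigen, under 3 kinds of flow.

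Each integrin is a pair of 1 alpha and 1 beta chain. The alpha chain largely sets the ligand: collagen, laminin, the RGD sequence of fibronectin and vitronectin, or a receptor on another cell. Each laminin is a trimer of an alpha, a beta and a gamma chain, and laminins with the alpha 4 or the alpha 5 chain make up most of the laminin in the basement membrane under vascular endothelium, where integrins of the beta 1 family bind them. In endothelium, integrins also take part in how cells sense the drag of flowing blood.

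All cells grew on glass coverslips in a parallel-plate chamber. The groups were PSS, laminar flow at 10 dyne/cm2, which stands for normal shear in a cerebral vessel; HSS, laminar flow at 20 dyne/cm2, which stands for the bifurcation where an aneurysm starts; and Vortex, an irregular flow of 0.5 to 2 dyne/cm2, which stands for the sac of a grown aneurysm. Each group had 3 libraries of polyadenylated RNA. How long the flow lasted is not stated in these sources. Everything comes from 1 established line, and the labels neither say that the libraries of a group came from separate cultures nor number any batch, and they speak of mixed RNA, so p-values measure the spread between these libraries, which may be technical.

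Libraries held 17407217 to 22965802 counts. Vortex replicate 2 stood apart: within groups, log2 expression correlated across tested genes with r of 0.992 to 0.993 in HSS, 0.977 to 0.992 in PSS and 0.852 to 0.962 in Vortex, and on the first principal component, which held 46.4% of the variance, Vortex replicate 2 was at -121.6 and the other Vortex libraries at 64.8 and 15.5. Results are therefore given with and without it. The labelled cell type was checked on 9 endothelial markers. Their summed FPKM (a level scaled by gene length and library total, as deposited) was 371 to 473 in PSS, 75.5 to 76.7 in HSS, and 128, 1141 and 196 in Vortex replicates 1, 2 and 3. Of the 9, edgeR called 7 lower in HSS than in PSS, and DESeq2 and limma-voom 5 each. Leaving out any 1 PSS or HSS library cut the 7 to between 1 and 3. Without Vortex replicate 2, all 9 were called lower in HSS, as they were with only the 6 libraries compared. In Vortex against HSS, edgeR called 8 of 9 higher with all libraries, 8 without Vortex replicate 2 and 0 with only the 6 libraries compared. In Vortex against PSS, edgeR called 0 of 9 with all libraries (1 had an unadjusted p under 0.05, limma-voom called 0 and DESeq2 1, higher) and 8, all lower, once Vortex replicate 2 was left out. Cldn5, a claudin that seals brain endothelial tight junctions, had 2, 0 and 0 counts in the HSS libraries. In bulk RNA, fewer cells of a type and less RNA per cell cannot be told apart, and the part of these marker differences in the results below was not tested.

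Of the 37 members, 30 had enough counts to be tested and 7 did not. The 7 were Itga8, Itgal, Itgam, Itgax, Itgad, Itgb6 and Itgb8, whose highest count in any library was 26. By mean FPKM over the 9 libraries, the levels of the members ran from 0.00698 for Itgam to 224 for Lamc1, and after Lamc1 came Itgb1 at 177, Itga5 at 83.0, Lama5 at 77.5, Itga6 at 74.6 and Lamb1 at 66.1. The ranges of Itga5, Lama5, Itga6 and Lamb1 over the 9 libraries overlapped, so the order among these 4 is within their spread. The chains of the laminin made of alpha 5, beta 1 and gamma 1, and of the integrins alpha 5 beta 1 and alpha 6 beta 1 were thus the most abundant messages of the set.

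A gene was called at an adjusted p under 0.05 over all 15774 tested genes in edgeR's quasi-likelihood fit. In HSS against PSS 11 of the 30 were called, 5 higher and 6 lower, where 7.87% of all tested genes were called, 4.18% higher and 3.7% lower. In Vortex against PSS 12 were called, 7 higher and 5 lower, against 13.4% of all genes (8.33% higher, 5.03% lower), and in Vortex against HSS 4 were called, all higher, against 7.04% of all genes (4.37% higher, 2.67% lower). The share of members called was thus above that of all genes in each comparison, which describes these members and is no test. The FPKM of the groups did not overlap in 24, 15 and 9 of the 30 members, where 55.9%, 30.1% and 36.2% of all tested genes did not. The members' median log2 fold change was 0.27, 0.56 and 0.10 in the 3 comparisons, and that of all tested genes was -0.0049, 0.11 and 0.10. Each pair of comparisons shares a group, PSS in the first 2, so their values are given side by side and not as separate evidence. Without Vortex replicate 2 the counts were 22, 21 and 11 of 30, and the share of all genes called was larger too, at 29.1%, 36.3% and 23.9%. When each of the 9 libraries was left out in turn, Itga1, Itga2, Itga4 and Lama1 were called lower in HSS in all 9 fits, Itga1, Itga4 and Lama1 lower in Vortex in all 9, and Itga2 higher in Vortex than in HSS in all 9. No other call held in all 9. When only the 6 libraries of a comparison were fitted, 23 of 30 were called in HSS against PSS, where 40.8% of genes were, 2 of 28 in Vortex against PSS (Itga4 and Lama1, lower, adjusted p = 0.0494 and 0.0484), where 0.792% were, and 1 of 28 in Vortex against HSS (Itga2, higher, adjusted p = 0.0317), where 0.438% were.

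**Figure D1:**
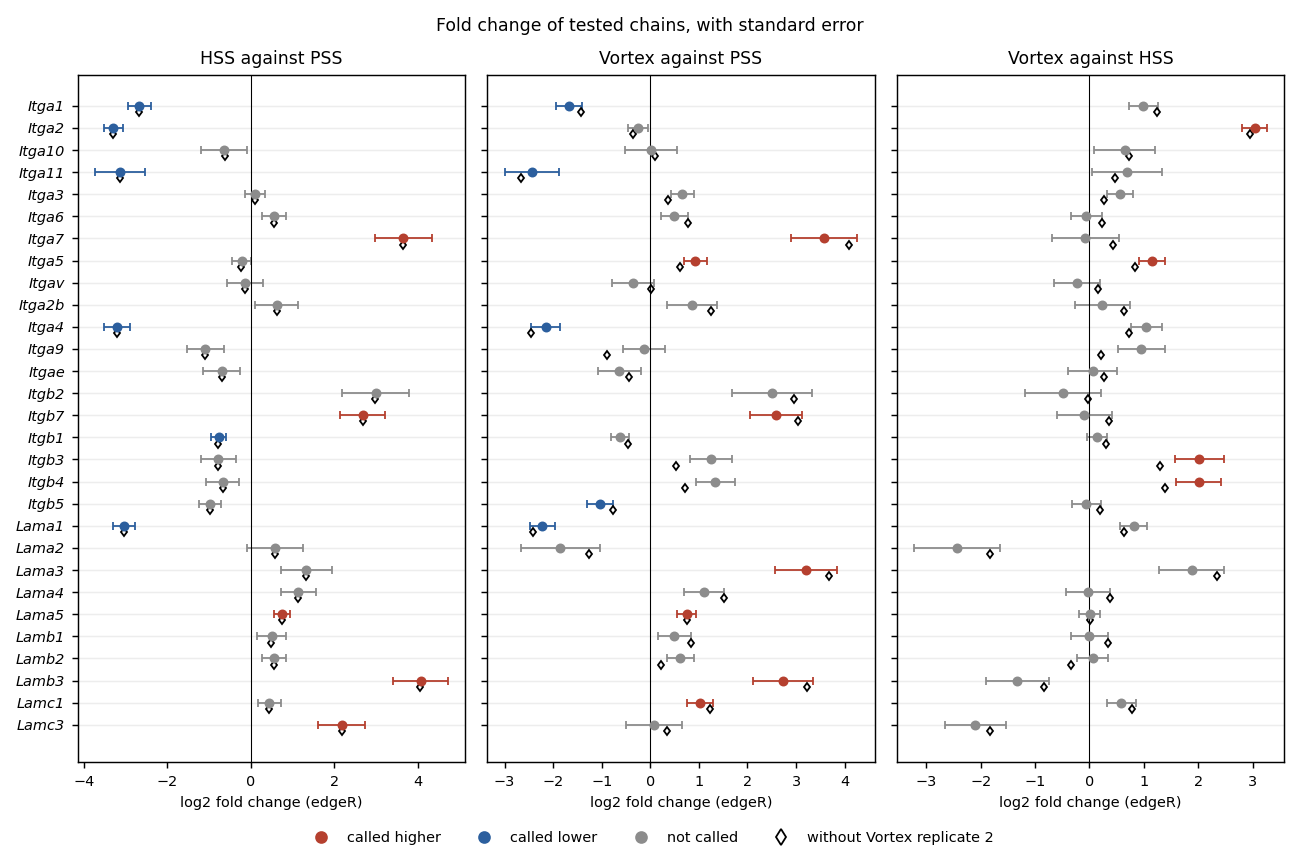
The 3 panels plot the log2 fold change of the tested chains (x axis) with its standard error as a bar, in HSS against PSS, Vortex against PSS and Vortex against HSS; filled points use all 9 libraries, red called higher, blue called lower and grey not called, and open diamonds leave out Vortex replicate 2. Itga2, at -3.29 in the first panel, -0.26 in the second and 3.04 in the third, is low in HSS alone.

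The sequence before the start of a gene is where many flow-responsive factors bind. RefSeq promoter records (GRCm38.p6) were used for 23 of the 37 members, with member records of a single chromosome left out. The 250 bases before the start were searched on both strands for 7 motifs: AP-1 (TGANTCA, in 6.75% of all 32851 promoter records), TEAD (GGAATG, 12.6%), GC box (GGGCGG, 32.7%), ETS (CCGGAAG, 6.91%), TATA box (TATAAA, 12.4%), KLF (CCACACCC, 3.2%) and kappaB (GGGANTTCC, 1.43%). KLF factors are known as flow-responsive in endothelium, AP-1 and TEAD as shear-responsive, and the GC box is the site of Sp factors. Shown are 4 genes called lower or higher by more than 2 on the log2 scale in HSS (Itga1, Itga2, Itga4, Lamb3), and Lama5, an abundant chain whose change stayed under 1 on that scale. They are written 5′ to 3′ on the gene's strand, with motif matches in capitals. Itga1 lies at chr13:115101965-115102214 on the minus strand, Itga2 at chr13:114932101-114932350 on the minus strand, Itga4 at chr2:79255176-79255425 on the plus strand, Lamb3 at chr1:193301744-193301993 on the plus strand and Lama5 at chr2:180225860-180226109 on the minus strand.
Itga1: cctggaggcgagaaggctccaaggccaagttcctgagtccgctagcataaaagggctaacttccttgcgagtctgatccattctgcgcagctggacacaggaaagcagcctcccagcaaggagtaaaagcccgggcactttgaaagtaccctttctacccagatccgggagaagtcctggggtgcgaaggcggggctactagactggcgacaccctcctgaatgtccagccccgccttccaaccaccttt
Itga2: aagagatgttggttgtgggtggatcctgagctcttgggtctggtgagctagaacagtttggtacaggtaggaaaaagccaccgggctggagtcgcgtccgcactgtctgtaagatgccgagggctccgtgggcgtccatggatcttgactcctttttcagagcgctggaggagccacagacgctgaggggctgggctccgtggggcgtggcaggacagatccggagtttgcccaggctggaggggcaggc
Itga4: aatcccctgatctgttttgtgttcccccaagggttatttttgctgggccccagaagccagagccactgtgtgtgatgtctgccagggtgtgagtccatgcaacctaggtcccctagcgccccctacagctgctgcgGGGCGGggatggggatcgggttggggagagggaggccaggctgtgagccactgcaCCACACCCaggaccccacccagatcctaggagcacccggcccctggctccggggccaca
Lamb3: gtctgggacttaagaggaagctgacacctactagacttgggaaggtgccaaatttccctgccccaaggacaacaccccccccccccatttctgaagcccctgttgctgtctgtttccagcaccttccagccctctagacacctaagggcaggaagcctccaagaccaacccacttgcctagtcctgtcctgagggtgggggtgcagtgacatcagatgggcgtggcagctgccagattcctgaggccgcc
Lama5: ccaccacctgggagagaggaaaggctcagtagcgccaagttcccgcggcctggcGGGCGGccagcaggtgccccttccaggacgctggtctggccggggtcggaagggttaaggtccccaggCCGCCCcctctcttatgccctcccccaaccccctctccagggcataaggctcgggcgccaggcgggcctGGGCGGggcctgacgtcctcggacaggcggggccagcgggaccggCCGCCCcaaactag
The Itga4 window held 1 GC box, 114 bases before the start, and 1 KLF match, 59 bases before it. The Lama5 window held 4 GC boxes, 196, 128, 59 and 14 bases before the start. The windows of Itga1, Itga2 and the Lamb3 record shown, the first of 2, held none of the 7. The second Lamb3 record held 1 TEAD match, 167 bases before its start. Of all 23 members with a record used, 8 had a GC box in the first record, which is near the 32.7% of all promoter records. Of the 6 members with a record used that were called beyond 2 on the log2 scale in HSS against PSS (Itga1, Itga2, Itga4, Itga11, Itgb7 and Lamb3), 1 had a GC box. Of 8 other tested members with a mean above 10 FPKM, 6 had one (Itga3, Itga5, Itgb1, Itgb5, Lama5 and Lamb1, but not Itgav or Lamb2), and of the 4 remaining tested members, all at lower levels (Itga9, Itga10, Itga2b and Lama2), 0 had one. These classes were chosen after the values were seen, and a match in letters shows no binding.

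The integrins that bind collagen pair with beta 1 through alpha 1, alpha 2, alpha 10 or alpha 11. Of these 4, 3 were called lower in HSS than in PSS (Itga1, Itga2 and Itga11), 2 lower in Vortex than in PSS (Itga1 and Itga11), and Itga2 was called higher in Vortex than in HSS. Itga2 (ENSMUSG00000015533), whose chain binds fibrillar collagen, was at 7.14, 7.15 and 6.57 FPKM in PSS, 0.810, 0.636 and 0.625 in HSS and 3.87, 5.68 and 5.98 in Vortex. The 3 HSS libraries lay far below the other 6, and the Vortex libraries lay below the PSS range, Vortex replicate 1 furthest. Itga2 fell by 3.29 ± 0.23 (SE) on the log2 scale in HSS (edgeR adjusted p = 0.000807), was at -0.26 ± 0.21 in Vortex against PSS (adjusted p = 0.446) and was higher by 3.04 ± 0.22 in Vortex than in HSS (adjusted p = 0.00211).

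Itga1 (ENSMUSG00000042284), whose chain favours basement membrane collagen IV, was at 5.20, 5.06 and 4.45 FPKM in PSS, 0.784, 0.819 and 0.650 in HSS and 1.48, 0.829 and 1.79 in Vortex. PSS was highest without overlap, and each Vortex library was above every HSS library. The log2 fold change was -2.67 ± 0.27 in HSS (edgeR adjusted p = 0.00158) and -1.68 ± 0.26 in Vortex (adjusted p = 0.00633). The step from HSS to Vortex, 0.99 ± 0.26, missed the threshold (adjusted p = 0.0529) and passed it without Vortex replicate 2 (log2 fold change 1.25, adjusted p = 0.000564). Itga1 and Itga2 are both on chromosome 13, on the same strand, and a predicted gene that overlaps Itga1 on that strand, Gm49395, held 27, 6 and 4 counts per group.

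Itga11, a collagen receptor of mesenchymal cells, was low throughout, at 0.324, 0.333 and 0.216 FPKM in PSS, 0.0281, 0.0560 and 0.0105 in HSS and 0.0223, 0.0594 and 0.0558 in Vortex, which is 87, 9 and 15 counts per group. PSS lay above both other groups without overlap. It fell by 3.13 ± 0.59 on the log2 scale in HSS (edgeR adjusted p = 0.0149) and fell by 2.44 ± 0.56 in Vortex (adjusted p = 0.0221). The HSS call was lost on leaving out PSS replicate 1 or 2, or HSS replicate 1 or 3 (adjusted p up to 0.0939), and the Vortex call with PSS replicate 1 or 2, the first HSS library or the third Vortex library left out (up to 0.0965). Both calls held without Vortex replicate 2 (edgeR adjusted p = 0.00198 in HSS and 0.00763 in Vortex). Itga10, known from cartilage, had 4 to 19 counts per library and was not called in any comparison. Since alpha 11 belongs to mesenchymal cells, 6 fibroblast markers were read beside it, of which 5 had enough counts to test. The summed FPKM of the 6 was 78.4 to 111 in PSS, 123 to 129 in HSS and 11.9 to 104 in Vortex. Most of it was Col1a1 and Col3a1, and the markers did not move together. In Vortex replicates 1 and 3, Pdgfra was at 42.4 and 32.1 FPKM, above its 7.35 to 7.74 in PSS. Col1a1 was at 17.2 and 24.3 there, below its 29.2 to 42.6 in PSS. With all libraries, none of the 5 was called in any comparison. Without Vortex replicate 2, Dcn and Col3a1 were called higher in HSS than in PSS (edgeR adjusted p = 0.000864 and 0.00639). In Vortex against PSS, Pdgfra and Dcn were then called higher (edgeR adjusted p = 3.72e-06 and 1.22e-06) and Col1a1 lower (0.0139). The part of these markers in the Itga11 values was not tested.

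**Figure D2:**
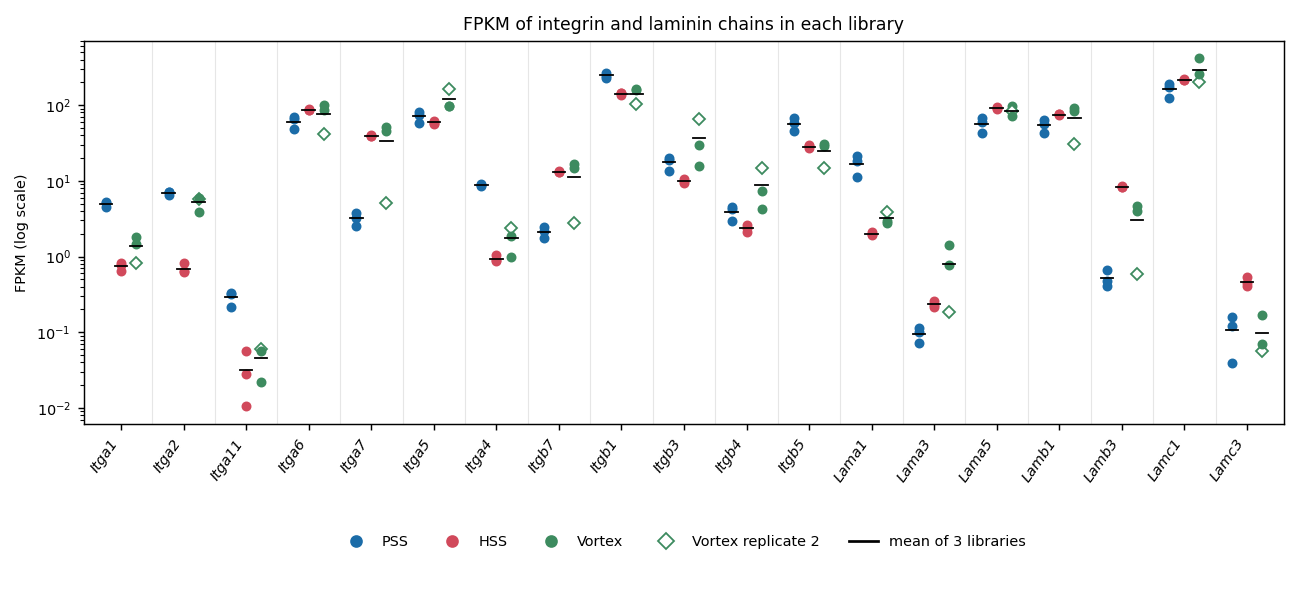
FPKM on a log axis of the 19 members that were called in at least 1 comparison or were the most abundant of their role (x axis), with 1 point per library, open diamonds for Vortex replicate 2 and a bar for the mean of 3 libraries. Itga2 is low in the 3 HSS libraries only, and Vortex replicate 2 lies near the PSS libraries for Itga7, Itgb7 and Lamb3.

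The laminin receptors of the beta 1 family use alpha 3, alpha 6 or alpha 7, and alpha 6 also pairs with beta 4. Itga7 was the 1 of these 3 that was called, higher in both HSS and Vortex than in PSS. Itga7 (ENSMUSG00000025348), best known as the laminin receptor of muscle, was at 3.27, 3.77 and 2.54 FPKM in PSS, 38.7, 38.9 and 40.0 in HSS and 50.7, 5.14 and 45.9 in Vortex. The HSS libraries and Vortex replicates 1 and 3 were an order of magnitude above PSS, while Vortex replicate 2 was only just above it. The log2 fold change was 3.66 ± 0.69 in HSS (edgeR adjusted p = 0.0149) and 3.58 ± 0.68 in Vortex (adjusted p = 0.0115), and without Vortex replicate 2 these were 3.66 (adjusted p = 3.25e-07) and 4.08 (adjusted p = 2.41e-07). With that library kept, the HSS call was lost when any 1 of the PSS and HSS libraries was left out (adjusted p up to 0.0856) and the Vortex call without PSS replicate 1 or 3 (up to 0.0621). A gene on the opposite strand that overlaps Itga7, Mettl7b, held 36, 142 and 161 counts per group, and no source used here gives the strand setting of the counting. Of 8 pericyte and smooth muscle markers, 6 had enough counts to test. The summed FPKM of the 8 was 4.37 to 5.48 in PSS, 7.68 to 8.14 in HSS and 1.90 to 12.5 in Vortex, of which Vortex replicate 2 had the lowest. Most of it was Pdgfrb. Among the low markers, Rgs5 was lower in HSS (0.0253 to 0.0591 FPKM) than in PSS (0.153 to 0.169). Kcnj8 was higher in HSS (0.675 to 0.744) than in PSS (0.189 to 0.244). With all libraries, none of the 6 was called in HSS against PSS, and Kcnj8 alone was called in Vortex against PSS (higher by 2.95, edgeR adjusted p = 0.0295). Without Vortex replicate 2, Pdgfrb was called higher and Rgs5 lower in HSS (edgeR adjusted p = 0.0350 and 0.0366). In Vortex against PSS 2 were then called, both higher. The part of these markers in the Itga7 values was not tested.

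Itga6, the most abundant of the laminin-binding chains, was at 64.6, 69.6 and 47.8 FPKM in PSS, 87.1, 85.8 and 87.6 in HSS and 85.3, 42.1 and 101 in Vortex. HSS lay above PSS without overlap, and Vortex ran from below PSS to above HSS. With all libraries it was not called (log2 fold change 0.56 ± 0.28 in HSS, edgeR adjusted p = 0.281, and 0.50 ± 0.28 in Vortex, adjusted p = 0.276), and without Vortex replicate 2 it was called higher in both (0.56, adjusted p = 0.0122, and 0.78, adjusted p = 0.00301). Itga3 ranged from 23.0 to 53.0 FPKM, with overlapping groups, and was not called in any comparison.

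The alpha chains that bind the RGD sequence are alpha 5, alpha v, alpha 8 and the platelet chain alpha IIb (Itga2b). Among the 3 tested, only Itga5 was called. Itga5, which with beta 1 makes the main fibronectin receptor, was at 73.5, 81.2 and 57.8 FPKM in PSS, 58.9, 56.9 and 61.7 in HSS and 97.8, 163 and 96.3 in Vortex. Vortex was the highest group without overlap, Vortex replicate 2 stood highest within it, and HSS and PSS overlapped. Itga5 was higher by 0.93 ± 0.24 on the log2 scale in Vortex than in PSS (edgeR adjusted p = 0.0347) and by 1.15 ± 0.24 than in HSS (adjusted p = 0.0276). They were, without Vortex replicate 2, 0.62 (adjusted p = 0.00741) and 0.84 (adjusted p = 0.00300). The call against PSS was lost when a single PSS or HSS library was dropped, whichever it was (adjusted p up to 0.121) and that against HSS without PSS replicate 1 or any HSS library (up to 0.134). After a smooth trend with gene GC content was taken out of each library, the call against PSS was also lost (adjusted p = 0.0582).

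Itgav, which pairs with beta 3 and beta 5 as vitronectin receptors, ranged from 7.51 FPKM in Vortex replicate 2 to 34.9 in PSS replicate 2 and was not called. Itga2b ranged from 0.719 to 3.79 FPKM and was not called with all libraries. Without Vortex replicate 2, Itga2b was higher in Vortex than in PSS by 1.26 (edgeR adjusted p = 0.0164). The 4 platelet and megakaryocyte markers had a summed FPKM of 12.3 to 20.9 in PSS, 14.5 to 15.0 in HSS and 13.2 to 39.0 in Vortex, with none at 0 throughout. Most of it was Pf4. Ppbp, at 2, 2 and 4 counts in PSS and 38, 35 and 25 in HSS, was called higher in HSS (3.64, edgeR adjusted p = 0.0276), and the other 3 were not. In Vortex against PSS none was called with all libraries, and Ppbp alone, higher, without Vortex replicate 2 (edgeR adjusted p = 0.0147). The part of these markers in the Itga2b values was not tested.

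Integrin alpha 4 beta 1 binds VCAM-1 and a splice form of fibronectin, and alpha 9 binds tenascin and related ligands. Itga4 (ENSMUSG00000027009) was at 8.71, 8.43 and 9.20 FPKM in PSS, 0.871, 0.892 and 1.04 in HSS and 0.997, 2.39 and 1.87 in Vortex. PSS was far above both other groups, HSS was at about 1 FPKM, and Vortex replicates 2 and 3 were above HSS. Itga4 fell by 3.20 ± 0.31 on the log2 scale in HSS (edgeR adjusted p = 0.00140) and fell by 2.15 ± 0.29 in Vortex (adjusted p = 0.00444). With the GC trend taken out the Vortex call was lost (adjusted p = 0.0964). Cerkl, which overlaps Itga4 on the opposite strand, had 173, 105 and 79 counts per group. The promoter with a GC box and a KLF match, shown above, is that of Itga4.

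Itga9 was at 2.15, 2.37 and 1.56 FPKM in PSS, 0.782, 1.13 and 0.887 in HSS and 0.902, 2.92 and 1.07 in Vortex. HSS and Vortex replicates 1 and 3 lay below every PSS library, and Vortex replicate 2 lay above all of them. The log2 fold change was -1.08 ± 0.44 in HSS (edgeR adjusted p = 0.172), called only without Vortex replicate 2 (adjusted p = 0.00288), when Vortex against PSS was called lower as well (-0.88, adjusted p = 0.0137).

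The leukocyte integrins, which guide white blood cells to the vessel wall, are 7 members, of which Itgal, Itgam, Itgax and Itgad had too few counts to test. Itgb7, the partner of alpha 4 and alpha E in lymphocytes, was the 1 of the 3 tested that was called, and was by far the most abundant. Itgb7 was at 2.42, 2.15 and 1.77 FPKM in PSS, 13.6, 13.1 and 13.0 in HSS and 14.6, 2.74 and 16.7 in Vortex. All HSS libraries and Vortex replicates 1 and 3 were well above PSS, and Vortex replicate 2 was just above it. The log2 fold change was 2.68 ± 0.54 in HSS (edgeR adjusted p = 0.0199) and 2.59 ± 0.54 in Vortex (adjusted p = 0.0161). Without Vortex replicate 2 the adjusted p was 1.26e-06 and 9.58e-07. With it kept, dropping any 1 of the PSS and HSS libraries ended the HSS call (adjusted p up to 0.101) and dropping any 1 of the PSS libraries ended the Vortex call (up to 0.0771) as did removal of the GC trend (0.0519).

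Itgb2, the shared beta chain of the leukocyte integrins LFA-1 and Mac-1, had 1, 2 and 7 counts in PSS, 36, 20 and 22 in HSS and 27, 5 and 19 in Vortex. HSS lay above PSS without overlap, and Vortex replicate 2 lay within the PSS range. It was not called with all libraries (log2 fold change 2.99 ± 0.81 in HSS, edgeR adjusted p = 0.0559) and was called higher in HSS and Vortex without Vortex replicate 2 (adjusted p = 0.00387 and 0.00516). Itgae had 9 to 29 counts per library and was not called. Of 10 leukocyte and macrophage markers, 8 were in the table and 3 had enough counts to test. Their summed FPKM was 4.46 to 5.36 in PSS, 7.93 to 8.44 in HSS and 8.56 to 37.8 in Vortex. The defining leukocyte gene Ptprc had at most 3 counts in every library. Of the 3 tested, Csf1r, the macrophage growth factor receptor, named after its values were seen, was higher in HSS by 3.20 (edgeR adjusted p = 0.00226). In Vortex it was higher by 2.78 (adjusted p = 0.00403). The others did not follow it in HSS: Cd68 was at 0.31 (adjusted p = 0.762) and Lyz2 at -0.32 (adjusted p = 0.906). In Vortex, Cd68 was called higher by 2.53 (adjusted p = 0.0122), and Lyz2, at 2.17, was not called (adjusted p = 0.217). The part of these markers in the Itgb7 and Itgb2 values was not tested.

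The remaining beta chains set the family of each receptor. Itgb1, the partner of most alpha chains described above, was at 245, 231 and 264 FPKM in PSS, 144, 143 and 137 in HSS and 160, 105 and 161 in Vortex. Every PSS library was above every HSS and Vortex library. Itgb1 fell by 0.77 ± 0.19 on the log2 scale in HSS (edgeR adjusted p = 0.0392), a call that did not survive the loss of any 1 PSS or HSS library, nor of Vortex replicate 3 (adjusted p up to 0.169). This HSS call held without Vortex replicate 2 (-0.77, edgeR adjusted p = 0.000587). In Vortex the value was -0.63 ± 0.19 (adjusted p = 0.0560), which passed without Vortex replicate 2 (-0.46, adjusted p = 0.0164).

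Itgb5 was at 58.0, 68.1 and 45.3 FPKM in PSS, 28.4, 27.4 and 29.3 in HSS and 29.3, 15.0 and 30.3 in Vortex. Both other groups lay below PSS without overlap. The log2 fold change was -0.97 ± 0.27 in HSS (edgeR adjusted p = 0.0599, and 0.000549 without Vortex replicate 2) and -1.03 ± 0.27 in Vortex (adjusted p = 0.0362). The Vortex call ended when any 1 of the PSS and HSS libraries, or the third Vortex library, was dropped (adjusted p up to 0.116). It held without Vortex replicate 2 (-0.78, edgeR adjusted p = 0.00385).

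Itgb3, the chain of the platelet fibrinogen receptor and of alpha v beta 3, was at 18.7, 20.3 and 13.7 FPKM in PSS, 10.1, 9.39 and 10.5 in HSS and 15.9, 65.2 and 29.6 in Vortex. Vortex lay above HSS without overlap, and its replicate 2 was the highest library. Itgb3 was higher in Vortex than in HSS by 2.02 ± 0.44 on the log2 scale (edgeR adjusted p = 0.0317) and by 1.30 without Vortex replicate 2 (adjusted p = 0.00360). Against PSS the Vortex value was 1.25 ± 0.43 (adjusted p = 0.0875) and was not called, and the HSS value of -0.77 ± 0.43 (adjusted p = 0.326) was called only without Vortex replicate 2 (0.0183).

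Itgb4, the partner of alpha 6 in hemidesmosomes, was at 4.53, 4.23 and 2.94 FPKM in PSS, 2.13, 2.37 and 2.64 in HSS and 4.19, 14.7 and 7.26 in Vortex. Vortex again lay above HSS without overlap and its replicate 2 was highest. The difference was 2.01 ± 0.41 (edgeR adjusted p = 0.0261) and 1.38 without Vortex replicate 2 (adjusted p = 0.00308). Both the Itgb3 and the Itgb4 call against HSS were lost on dropping PSS replicate 1 or 2 or a single HSS library (adjusted p up to 0.143 for Itgb3 and 0.134 for Itgb4). Of 6 epithelial markers, listed because beta 4 is an epithelial chain, 5 were in the table, 2 had enough counts to test, and Epcam, Cdh1 and Krt5 had at most 3 counts in every library. Their summed FPKM was 4.49 to 4.66 in PSS, 2.43 to 3.08 in HSS and 2.98 to 12.8 in Vortex, and their part in the Itgb4 values was not tested.

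**Figure D3:**
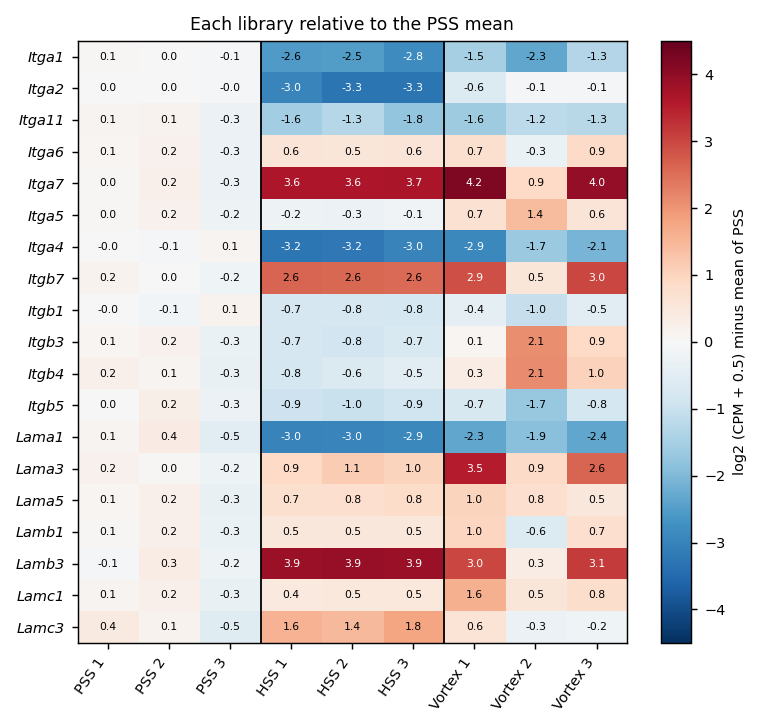
Each cell gives 1 library's log2(CPM + 0.5) minus the mean of the 3 PSS libraries (CPM: counts scaled to the library total) for the same 19 members (rows) in the 9 libraries (columns), in red above the PSS mean and in blue below it. The HSS libraries look alike, while Vortex replicate 2 departs from the other Vortex libraries in Itga7, Itgb7, Itgb3, Itgb4, Lama3 and Lamb3.

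Laminin alpha chains moved in opposite directions. Lama1 (ENSMUSG00000032796), whose chain is best known from embryonic basement membranes, was at 18.0, 21.3 and 11.4 FPKM in PSS, 1.92, 1.98 and 2.09 in HSS and 2.77, 3.88 and 2.92 in Vortex. The groups did not overlap: PSS was highest, then Vortex, then HSS. Lama1 fell by 3.04 ± 0.26 on the log2 scale in HSS (edgeR adjusted p = 0.00122) and fell by 2.22 ± 0.25 in Vortex (adjusted p = 0.00277). The step from HSS to Vortex, 0.82 ± 0.25, was not called (adjusted p = 0.0761).

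Lama5, whose chain is a main ligand of alpha 6 beta 1 under endothelium, was at 60.0, 66.9 and 42.6 FPKM in PSS, 89.9, 91.4 and 95.5 in HSS and 96.3, 82.4 and 72.9 in Vortex. Every HSS and Vortex library was above every PSS library. The rise was 0.75 ± 0.20 in HSS (edgeR adjusted p = 0.0493) and 0.75 ± 0.20 in Vortex (adjusted p = 0.0361). The HSS call was lost on dropping any 1 of the PSS and HSS libraries (adjusted p up to 0.184), the Vortex call also without Vortex replicate 1 (up to 0.116), and both were lost with the GC trend removed (adjusted p = 0.139 and 0.315). Both held without Vortex replicate 2 (0.75 in each, edgeR adjusted p = 0.00907 in HSS and 0.0116 in Vortex). Its promoter window, with 4 GC boxes, was the most GC-rich of those shown, at 72.4% G or C. The GC trend was computed from transcripts and not from promoters. Whether promoter GC bears on the lost calls was not tested.

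Lama4, the other main endothelial alpha chain, was at 17.4, 18.8 and 16.1 FPKM in PSS, 37.3, 37.0 and 37.9 in HSS and 42.9, 11.3 and 46.5 in Vortex. HSS and Vortex replicates 1 and 3 were above every PSS library, and Vortex replicate 2 was below them all. With all libraries the log2 fold change was 1.14 ± 0.42 in HSS (edgeR adjusted p = 0.135) and 1.11 ± 0.42 in Vortex (adjusted p = 0.109), neither called. Both were called higher without Vortex replicate 2, at 1.14 (adjusted p = 3.03e-05) and 1.52 (adjusted p = 1.03e-05).

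Lama3, an alpha chain of epithelial laminin, was at 0.115, 0.101 and 0.0716 FPKM in PSS, 0.215, 0.262 and 0.230 in HSS and 1.41, 0.186 and 0.773 in Vortex. PSS was lowest without overlap, and Vortex replicates 1 and 3 stood above all other libraries. Lama3 was higher by 3.21 ± 0.64 in Vortex than in PSS (edgeR adjusted p = 0.0132), a call lost on dropping any 1 of the PSS libraries (adjusted p up to 0.0662). That call held without Vortex replicate 2 (3.67, edgeR adjusted p = 3.52e-05). In HSS the value was 1.33 ± 0.62 (adjusted p = 0.235, and 0.0110 without Vortex replicate 2). Lama2, the chain of muscle laminin, had 0 to 12 counts per library and was not called.

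Of the laminin beta chains, Lamb3 alone was called with all libraries. Lamb3 (ENSMUSG00000026639), which pairs with the alpha 3 chain in epithelial laminin, was at 0.470, 0.667 and 0.407 FPKM in PSS, 8.31, 8.63 and 8.27 in HSS and 3.96, 0.580 and 4.66 in Vortex. HSS was highest without overlap, Vortex replicates 1 and 3 lay between HSS and PSS, and Vortex replicate 2 lay within the PSS range. The log2 fold change was 4.07 ± 0.65 in HSS (edgeR adjusted p = 0.00776), the largest of any member in that comparison, and 2.73 ± 0.62 in Vortex (adjusted p = 0.0217). The HSS call was lost without PSS replicate 1 or 3 (adjusted p up to 0.0546). The Vortex call was lost on dropping any 1 of the PSS libraries or Vortex replicate 3 (up to 0.0979) and with the GC trend removed (0.0534). Without Vortex replicate 2, HSS against PSS was 4.06 (edgeR adjusted p = 5.18e-07), Vortex against PSS was 3.22 (adjusted p = 2.67e-06) and Vortex against HSS was -0.84 (adjusted p = 0.00883).

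Lamb1, the common beta chain, was at 56.9, 64.2 and 42.9 FPKM in PSS, 75.2, 74.7 and 75.3 in HSS and 91.6, 30.6 and 83.3 in Vortex. HSS lay above PSS, and Vortex replicate 2 lay below all other libraries. It was not called with all libraries (log2 fold change 0.50 ± 0.35 in both, edgeR adjusted p = 0.443 in HSS and 0.377 in Vortex) and was called higher in both without Vortex replicate 2 (0.50, adjusted p = 0.0244, and 0.84, adjusted p = 0.00239). Lamb2, found in vessel and muscle laminins, ranged from 13.1 FPKM in PSS replicate 3 to 33.3 in Vortex replicate 2 and was called only in HSS against PSS without that last library (0.56, adjusted p = 0.0178).

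Lamc1, the gamma chain of nearly all laminins in vessels, was at 175, 192 and 123 FPKM in PSS, 213, 217 and 219 in HSS and 417, 205 and 259 in Vortex. Both other groups lay above PSS without overlap, and Vortex replicate 1 was highest. It was higher by 1.03 ± 0.27 in Vortex than in PSS (edgeR adjusted p = 0.0374), a call that was lost when any library other than Vortex replicate 2 was left out (adjusted p up to 0.120) and with the GC trend removed (0.131). With Vortex replicate 2 left out the call held (1.22, edgeR adjusted p = 0.00225). In HSS against PSS the value was 0.45 ± 0.27 (adjusted p = 0.367).

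Lamc3, a chain of few tissues, was at 0.158, 0.119 and 0.0395 FPKM in PSS, 0.450, 0.406 and 0.538 in HSS and 0.169, 0.0572 and 0.0706 in Vortex, which is 37, 161 and 35 counts per group. HSS was highest without overlap. It was higher by 2.18 ± 0.56 in HSS (edgeR adjusted p = 0.0480), a call that ended on dropping any 1 of the PSS and HSS libraries, or Vortex replicate 3 (reaching an adjusted p of 0.175), and with the GC trend removed (0.0693). The call held without Vortex replicate 2 (2.18, edgeR adjusted p = 0.00674).

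Since FPKM is scaled by length, chains that compete for the same trimer or pair could be set against each other within a library, as percent of their summed FPKM (mean ± SD, n = 3). Lama1 made up 18.3% ± 1.92 of laminin alpha message in PSS, 1.51% ± 0.0270 in HSS and 2.76% ± 1.07 in Vortex. Lama5 made up 62.0% ± 1.10, 69.9% ± 0.412 and 70.2% ± 12.8, and Lama4 19.6% ± 2.96, 28.3% ± 0.440 and 26.4% ± 13.4. The Vortex spread came from replicate 2, where Lama5 was 84.2% and Lama4 11.6%, against 67.1% and 29.9% in replicate 1 and 59.2% and 37.8% in replicate 3. Laminin alpha message as a whole summed to 90.9 ± 18.9 FPKM in PSS, 132 ± 3.42 in HSS and 121 ± 22.9 in Vortex. Lamb3 made up 0.712% ± 0.0722 of laminin beta message in PSS, 7.80% ± 0.198 in HSS and 2.94% ± 1.83 in Vortex, so Lamb1 and Lamb2 remained the bulk.

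Among alpha chains that pair with beta 1, collagen-binding chains made up 5.83% ± 0.757 in PSS, 0.640% ± 0.0885 in HSS and 2.25% ± 0.354 in Vortex, and alpha 4 with alpha 9 made up 5.17% ± 1.02, 0.768% ± 0.0837 and 1.15% ± 0.646. Laminin-binding chains made up 43.0% ± 0.116 in PSS and 64.0% ± 0.238 in HSS, and 55.4%, 35.4% and 58.4% in Vortex replicates 1, 2 and 3. Within them, Itga7 made up 3.46% ± 0.101 in PSS, 25.2% ± 0.353 in HSS and 30.7%, 5.13% and 25.1% in the Vortex replicates. Beta chains summed to 328 ± 1.41 FPKM in PSS, 196 ± 2.64 in HSS and 224 ± 21.6 in Vortex, and the ratio of Itgb1 to the summed FPKM of its alpha partners was 1.19 ± 0.318, 0.582 ± 0.0217 and 0.474 ± 0.0910. In each of these shares, HSS and PSS did not overlap, and the two-sided exact permutation test gave p = 0.1, the smallest that 3 against 3 allows (adjusted over 69 comparisons of shares, 0.160). The same exact p was found in Vortex against PSS for the shares of Lama1, Lamb3, Itga7, the collagen-binding chains and alpha 4 with alpha 9, but the exact p was 0.4 for Lama4, Lama5 and the laminin-binding chains. Other shares overlapped between HSS and PSS. Itgb1 made up 75.3% ± 4.86 of beta chain message in PSS, 72.2% ± 1.03 in HSS and 62.9% ± 10.1 in Vortex (exact p = 0.5 in HSS against PSS). In that comparison the shares of Itgb3, Itgb4, Itgb5, Itgav, Lamb2 and Lama2 had an exact p of 0.2 to 0.9.

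**Figure D4:**
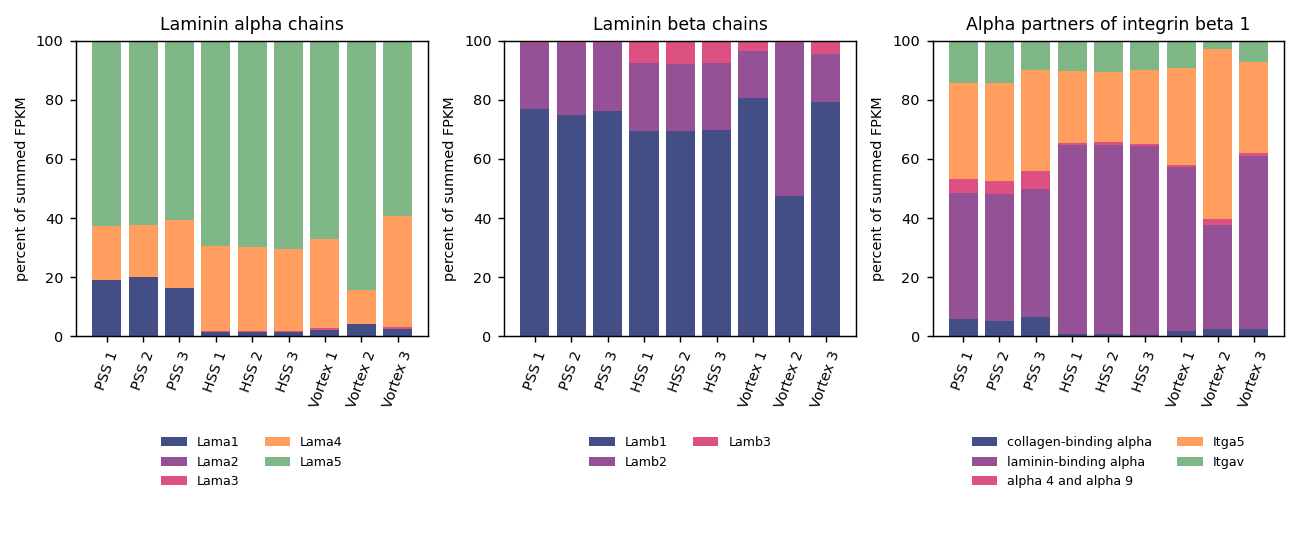
Stacked bars give, for each of the 9 libraries (x axis), the percent of summed FPKM (y axis, from 0 to 100) of each laminin alpha chain, each laminin beta chain, and the classes of alpha chain that pair with integrin beta 1. Lama1 shrinks from 18.3% on average in PSS to 1.51% in HSS, and Vortex replicate 2 differs from the other Vortex libraries in all 3 panels.

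Genes that work with integrins and laminins were read from 3 lists. Beside their counts stand the shares called among all tested genes. These were 7.87% in HSS against PSS, 13.4% in Vortex against PSS and 7.04% in Vortex against HSS. Without Vortex replicate 2 they were 29.1%, 36.3% and 23.9%. Of 31 genes of focal adhesions and integrin activation, 30 were tested: 3 were called higher and 1 lower in HSS against PSS, 6 higher and 2 lower in Vortex against PSS, and 2 higher in Vortex against HSS, with median log2 fold changes of 0.17, 0.52 and 0.27. Without Vortex replicate 2, these counts were 6 higher and 6 lower, 8 and 4, and 9 and 3. With all libraries, the count in Vortex against HSS was near the share of all genes. Tns3, a tensin that links integrin tails to actin, was higher in HSS by 1.88 ± 0.24 (edgeR adjusted p = 0.00341), and the kinase Src was higher by 1.49 ± 0.23 in HSS (adjusted p = 0.00615) and by 1.05 ± 0.22 in Vortex (adjusted p = 0.0165). Fermt2 (kindlin-2), an activator of beta integrins, fell by 1.06 ± 0.18 in HSS (adjusted p = 0.00943) and fell by 0.83 ± 0.18 in Vortex (adjusted p = 0.0168). Lims2 (PINCH-2) was higher by 1.48 ± 0.27 in Vortex (adjusted p = 0.00960).

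Of 21 genes of the basement membrane and of other laminin receptors, 19 were tested. In HSS against PSS 2 were called higher and 2 lower (median -0.13), in Vortex against PSS 5 higher and 1 lower (0.54), and in Vortex against HSS 1 higher and 1 lower (0.42). Leaving out Vortex replicate 2 made these 5 and 4, 6 and 3, and 2 and 1, the last being below the 23.9% of all genes. Fbln2 (fibulin-2) was higher in HSS by 1.25 ± 0.19 (edgeR adjusted p = 0.00602). Ntn4 (netrin-4), which binds laminin gamma chains, in HSS fell by 1.49 ± 0.29 (adjusted p = 0.0178). Papln (papilin) in HSS fell by 1.15 ± 0.22 (adjusted p = 0.0164) and in Vortex fell by 2.09 ± 0.23 (adjusted p = 0.00242). Nid1 (nidogen-1), which ties laminin to collagen IV, was higher in Vortex by 1.05 ± 0.17 (adjusted p = 0.00691), as was the collagen-modifying enzyme Plod3 by 1.19 ± 0.18 (adjusted p = 0.00526).

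Of 36 symbols of integrin ligands, 32 were in the table and 29 were tested. In HSS against PSS 4 were called higher and 4 lower (median -0.32), in Vortex against PSS 5 higher and 3 lower (0.40), and in Vortex against HSS 6 higher and 1 lower (0.68). With Vortex replicate 2 left out, 8 rose and 10 fell in HSS, 11 rose and 10 fell in Vortex, and 12 were higher and 3 lower in Vortex than in HSS. Edil3, an RGD protein of endothelium bound by alpha v integrins, in HSS fell by 2.56 ± 0.26 (edgeR adjusted p = 0.00158) and in Vortex fell by 1.89 ± 0.26 (adjusted p = 0.00438). Vwf in HSS fell by 5.65 ± 0.89 (adjusted p = 0.00748), and Jam2, a junction ligand of alpha 4 beta 1, fell by 2.13 ± 0.41 (adjusted p = 0.0163); Vwf is also 1 of the endothelial markers that were lower in HSS. In Vortex, the fibrillin Fbn1 fell by 1.58 ± 0.27 (adjusted p = 0.00879) and the galectin Lgals3 higher by 2.61 ± 0.50 (adjusted p = 0.0115).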

How the data were processed

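RNA was measured in 9 libraries of bEnd.3 cells, 3 per flow group, assigned from the labels and the table's column names. HISAT2, HTSeq 0.13.5 and build GRCm39 are named per the submitters' processing notes. The authors deposited whole-number counts per gene, not normalized, and FPKM values, which hold 1 gene length per gene within a relative tolerance of 1e-06. Counts were fitted in R 4.3.3 with edgeR 4.0.16: filterByExpr, TMM, a robust quasi-likelihood fit of all 9 libraries with 1 mean per group, F tests and Benjamini-Hochberg adjustment over 15774 genes, called under 0.05. The fit's biological coefficient of variation was 0.350, and standard errors are the log2 fold change over the square root of F. With 3 against 3, the libraries limit precision, and the shared variance carries single-gene calls. The edgeR steps were run on simulated counts with the same spread per gene in all groups. That simulation does not show how the steps behave with the wider Vortex spread. Members called in a comparison, or most abundant in their role, are given in full, with up to 3 genes per partner list and comparison. Members, lists and tests were chosen with earlier results of these data known. Alternatives were DESeq2 1.42.0, limma 3.58.1 on log2 FPKM, other scalings and filters, a replicate block, only the 6 compared libraries, leaving out each library, and, added after the data were seen, removing a GC trend (lowess span 0.3, with a GC value for 98.5% of tested genes). RefSeq promoters are of GRCm38.p6. Of the set, 1 tested chain is not reported here on its own, though the counts include it.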

Additional observations from a re-analysis of the deposited data

How the results depend on the processing

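The 11 members called in HSS against PSS became 23 when only the 6 compared libraries were fitted and 23 with the GC trend removed and Vortex replicate 2 left out, and ranged from 4 to 22 when each library was left out. The 12 called in Vortex against PSS became 7 by limma on log2(FPKM + 1), 7 with the replicate block, 2 with only the 6 libraries, 6 with the GC trend removed and 20 with Vortex replicate 2 also left out, and ranged from 3 to 21 under leave-one-out. The 4 called in Vortex against HSS became 9 by the DESeq2 Wald test, 1 with the replicate block, 1 with only the 6 libraries and 14 with the GC trend removed and Vortex replicate 2 left out, and ranged from 1 to 11. Over all genes, 1242, 2107 and 1111 calls ranged under leave-one-out from 285 to 4730, 519 to 5888 and 25 to 3887. The cause was not tested. Same-numbered libraries of different groups correlated between -0.12 and 0.12 in their deviations from group means, and differently numbered ones between -0.16 and 0.12. These values show no pairing by number, but with 3 libraries per group they cannot exclude it. Under the replicate block HSS against PSS had 8 members called. Of the fold changes recomputed, 1 of 378 turned sign in Vortex against PSS, which was Itga2 at 0.16 with the GC trend removed (edgeR adjusted p = 0.772). Of the shares, 3 turned sign on leaving out libraries, all in Vortex minus HSS: Lama4 ranged from -7.58 to 5.51 percentage points, Lama5 from -6.76 to 5.76 and Itga7 from -10.1 to 2.65, each at one end without Vortex replicate 2. Depth limits Itga10, Itga11, Itgae, Itgb2, Lama2 and Lamc3, which had under 100 counts in every library, and the 7 untested chains.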
